A study of Mus musculus with 6 samples.

Results

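The transcripts of 10 cytokine receptor chains were followed in cultured lung ILC2s that carried a disrupted Cd48 gene or the wild-type gene. The chains were chosen by name: Il2ra, Il2rb, Il2rg, Il7r, Il4ra, Il9r, Il21r, Il17rb, Crlf2 and Csf2rb, and all 10 were found among the 17438 genes of the deposited table. RNA was sequenced in 6 samples. The Cd48 KO group (n = 3) carried the allele B6.129S4-Cd48tm1Rsr/EpaulJ, and the WT group (n = 3) had no altered gene named. Per the labels, both groups had the strain CB57BL/6, and in both the cells were ILC2s sorted from lung, treated with IL-33 and kept in culture before RNA extraction. For the age and sex of the mice, the length of the culture and other cytokines in the medium, nothing is given in the sources used here. Nor is it stated that each sample had a mouse of its own. The p-values set the genotype difference against the spread among these samples, which may be partly technical and not between mice.

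Group 2 innate lymphoid cells (ILC2s) have no antigen receptor of their own and take their orders from cytokines. IL-33, IL-25 and TSLP, released by stressed barrier cells, start their secretion of type 2 cytokines, whereas IL-2 and IL-7 keep them alive and dividing. Most of these receptors share parts: Il2rg encodes the common gamma chain used by the receptors for IL-2, IL-4, IL-7, IL-9, IL-15 and IL-21, and Il7r encodes the IL-7 receptor alpha chain that also pairs with the product of Crlf2 to bind TSLP. Signals of the gamma chain receptors run through JAK1 and JAK3 to STAT proteins, whereas the IL-25 receptor signals through the adaptor ACT1 and TRAF proteins.

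Libraries held between 14928623 and 27450400 counts. The Cd48 transcript stood at 4.52, 5.59 and 4.40 CPM (read counts relative to library size) in KO1, KO2 and KO3, against 58.2, 46.6 and 41.6 CPM in WT1, WT2 and WT3, a log2 fold change of -3.33 with all libraries (adjusted p 0.00285, edgeR's quasi-likelihood test) and -3.18 without WT1. All 10 ILC2 markers examined were in the table, and their summed level ran from 11260 to 12120 CPM in KO libraries and from 9895 to 14120 CPM in WT libraries. Il5 made up most of this sum, which therefore says little about the other markers. Thy1 was lower in every KO library than in every WT library (9.11% of all genes). Il1rl1 was higher in every KO library (10.2% of all genes). With all libraries, 0 of the 10 passed edgeR's test. WT1 stood apart: between libraries, Pearson's r across genes (log2 CPM) lay at 0.922 to 0.932 when WT1 was one of the pair and at 0.980 to 0.988 when it was not. It also had the fewest genes detected, 15469, against 16806 to 17035 in the other libraries. The fitted fold changes of the receptor chains are therefore given with all 6 libraries and without WT1 (3 KO against 2 WT libraries). In these bulk samples, fewer cells of a type and less RNA per cell cannot be told apart.

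Levels of different genes were compared as CPM per kilobase of the longest annotated transcript. Il2rg was the most abundant chain, with 794.7 ± 31.8 CPM per kilobase in KO and 1050 ± 381 CPM per kilobase in WT (SD, n = 3 each). Il2ra followed with 467.1 ± 7.53 CPM per kilobase in KO and 375.1 ± 24.7 CPM per kilobase in WT (SD, n = 3 each). Below them came Il2rb (129.7 in KO, 115.8 in WT), Il4ra (117.0 and 91.2), Il7r (44.4 and 37.5), Il9r (25.9 and 24.3), Csf2rb (22.4 and 17.1), Crlf2 (15.7 and 19.7), Il17rb (12.2 and 8.69) and Il21r (1.63 and 1.36 CPM per kilobase). The 3 chains of the IL-2 receptor thus headed the order in both genotypes, and the IL-25 receptor chain Il17rb and Il21r closed it. Neighbours in this order did not overlap among KO libraries. Among WT libraries Il2rb and Il4ra overlapped, and so did Il9r with Csf2rb and Csf2rb with Crlf2. With the mean length of coding transcripts instead of the longest transcript, Il4ra moved above Il2rb (298.6 and 178.7 CPM per kilobase in KO, 232.7 and 159.6 CPM per kilobase in WT) and Il9r above Il7r. The KO libraries lay close together: the coefficient of variation of CPM was 1.61% for Il2ra, the lowest, up to 9.12% for Il17rb and 32.9% for Il21r. Among WT libraries it was 5.34% for Crlf2, the lowest, 36.3% for Il2rg and 37.4% for Il21r, and it was lower in KO than in WT for 9 of the 10 chains, Crlf2 being the exception. That count rested on WT1: over WT2 and WT3 alone the coefficient was above that of KO for 4 of the 10 (Il2ra, Il7r, Il17rb and Il21r), and it was 0.478% for Il2rg and 0.232% for Il9r.

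With all 6 libraries, 0 of the 10 receptor chain genes passed edgeR's quasi-likelihood test at a Benjamini-Hochberg (BH) adjusted p under 0.05, where 0.0300% of 13317 tested genes did. DESeq2 called 0 of the 10 (0.726% of genes), and limma-voom called 0 (4 of 13317 genes). With quality weights per sample limma-voom called 1, Il2ra (0.751% of genes). Those weights were 0.0919 for WT1 and 1.08 to 2.36 for the other libraries. The weighted fit thus leaned little on WT1 and is not separate from the fit without it. In edgeR with all libraries, 3 chains had an unadjusted p under 0.05, namely Il2ra, Il17rb and Crlf2, where 6.89% of all genes reached it. Without WT1 there were 5, with Il4ra and Csf2rb added, and 13.7% of all genes. Without WT1, edgeR called 1 of the 10, Il2ra, which rose in KO (1.82% of 13643 genes were called, and 1.17% of the 13643 as higher), and 9 did not pass. Every KO library lay above every WT library for 5 chains, Il2ra, Il2rb, Il4ra, Il17rb and Csf2rb (10.2% of all genes), and below every WT library for Crlf2 (9.11% of all genes). Il2rg, Il7r, Il9r and Il21r overlapped between the genotypes. Without WT1, the KO libraries of 5 chains lay above both WT libraries (15.8% of all genes) and those of 2, Il9r and Crlf2, below both (14.3% of all genes). Of the 10 chains 8 had a log2 fold change above 0 with all libraries (49.5% of all genes) and 7 without WT1 (50.2% of all genes). The median log2 fold change of the 10 chains was 0.25 with all libraries, against -0.004 over all tested genes, and 0.14 without WT1, against 0 over all tested genes.

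**Figure D1:**
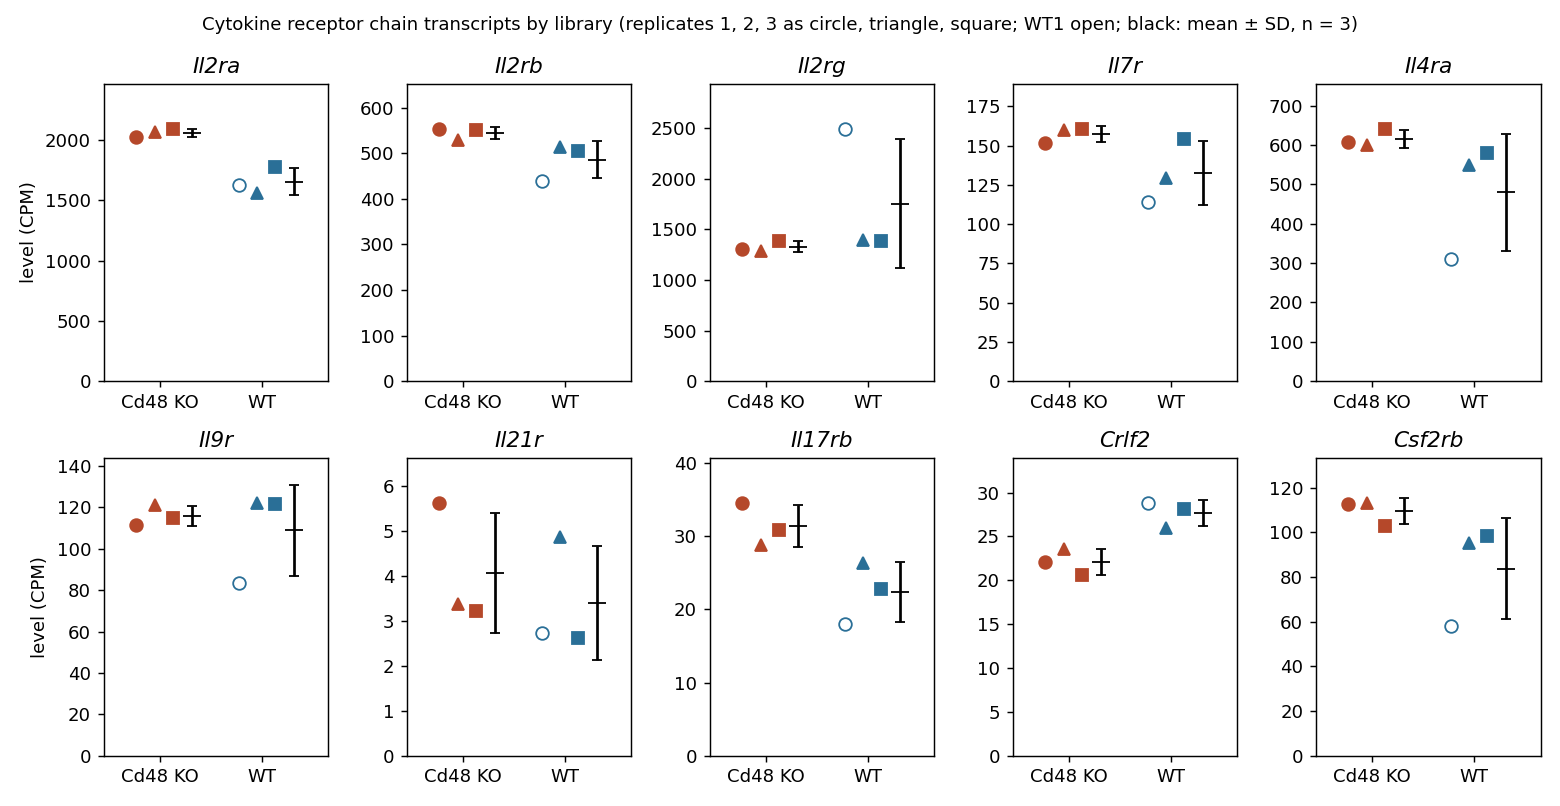
Level of each receptor chain in CPM (y axis, from 0) in the 3 Cd48 KO libraries (left) and 3 WT libraries (right), with mean ± SD in black. KO libraries lie above WT libraries for Il2ra, Il2rb, Il4ra, Il17rb and Csf2rb and below them for Crlf2, and WT1 (open symbol) is far from the other WT libraries for Il2rg, at 2489 CPM, and Il4ra, at 309.4 CPM.

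Il2ra, which encodes CD25, the alpha chain that gives the IL-2 receptor its high affinity, was the chain with the lowest p. It lies on chromosome 2 (GRCm38, 11642807 to 11693193, plus strand). Its level was 2025, 2066 and 2091 CPM in KO1, KO2 and KO3, against 1625, 1564 and 1776 CPM in WT1, WT2 and WT3. All KO libraries lay above all WT libraries, and WT1 fell between the other WT libraries. The means were 2061 ± 33.2 CPM in KO and 1655 ± 108.8 CPM in WT (SD, n = 3 each). The log2 fold change was 0.32 (SE 0.10) with all 6 libraries, an adjusted p of 0.690 (edgeR, BH). Without WT1 it was 0.31 (SE 0.06), a 1.24-fold higher level in KO, and the adjusted p was 0.02 (edgeR, BH). Leaving out WT2, KO2 or KO3 besides WT1 ended that call, with adjusted p of 0.168, 0.103 and 0.111 (edgeR, BH) and log2 fold changes of 0.21, 0.30 and 0.29. T cells can also carry CD25. Of 6 T cell markers, Cd4, Cd8a and Cd5 were not in the table. The summed level of the other 3 (Cd3e, Cd3d and Foxp3) ran from 1.54 to 2.94 CPM in KO and from 3.28 to 4.95 CPM in WT, lower in every KO library. Of these, Cd3e alone was lower in every KO library (9.11% of all genes), at 1.40, 0.49 and 1.52 CPM against 2.37, 2.67 and 2.19 CPM in WT libraries. Cd3d and Foxp3 overlapped between the genotypes, and all these levels lie near the floor. The part of T cells in the Il2ra level was not tested. Gm37881, an uncertain gene model inside Il2ra, stood at 6.47, 8.12 and 7.73 CPM in KO libraries, against 5.87, 6.81 and 8.22 CPM in WT libraries.

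The bases before the start of Il2ra are shown with those of Il17rb and Crlf2, since these are the 3 chains with the lowest unadjusted p. Each run holds the 250 bases upstream of the RefSeq start in GRCm38.p6, 5′ to 3′ on the strand of the gene. Capitals mark matches to GGGANNNNCC, a pattern that holds sites of the NF-κB family, on either strand.
Il2ra, chr2:11642542-11642791, plus strand: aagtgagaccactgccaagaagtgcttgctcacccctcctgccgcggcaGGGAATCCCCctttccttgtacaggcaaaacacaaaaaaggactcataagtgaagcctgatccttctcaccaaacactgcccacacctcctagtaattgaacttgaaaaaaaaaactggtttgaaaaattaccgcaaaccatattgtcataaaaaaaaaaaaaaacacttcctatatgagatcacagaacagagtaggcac
Il17rb, chr14:30008897-30009146, minus strand: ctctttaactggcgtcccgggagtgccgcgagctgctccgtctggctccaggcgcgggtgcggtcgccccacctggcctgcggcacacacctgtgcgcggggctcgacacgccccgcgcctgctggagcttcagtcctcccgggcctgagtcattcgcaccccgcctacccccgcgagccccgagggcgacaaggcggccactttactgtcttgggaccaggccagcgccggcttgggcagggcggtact
Crlf2, chr5:109558994-109559243, minus strand: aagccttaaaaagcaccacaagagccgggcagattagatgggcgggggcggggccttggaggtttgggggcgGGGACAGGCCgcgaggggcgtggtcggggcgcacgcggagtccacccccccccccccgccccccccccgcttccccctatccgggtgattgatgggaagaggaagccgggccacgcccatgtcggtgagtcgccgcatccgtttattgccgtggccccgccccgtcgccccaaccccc
The pattern was found in Il2ra at 201 bases before the start, in Crlf2 at 178 bases before the start, and in no place in Il17rb. Of the other chains with a promoter entry, Il21r alone also held it, at 231 bases before the start. It occurred in 17.6% of all 32851 promoters of the same length. The STAT pattern TTCNNNGAA was in none of these 3 windows, and among the 8 chains with a promoter entry only Il7r held it, at 142 bases before the start (7.02% of all promoters). The GATA pattern GATAA, likewise read on either strand, was in none of the 3 either, and Il9r alone among the 8 held it, in 3 places (22.6% of all promoters). GC content was 42.4% in the Il2ra window, 72.0% in that of Il17rb and 71.6% in that of Crlf2. These matches describe the letters of the windows and do not show binding.

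Il2rb encodes the beta chain shared by the IL-2 and IL-15 receptors (chromosome 15, 78479256 to 78495271, minus strand). Its level was 553.0, 529.3 and 549.9 CPM in KO libraries, against 439.8, 513.0 and 504.7 CPM in WT libraries. The groups did not overlap, but the nearest values, 529.3 CPM in KO2 and 513.0 CPM in WT2, were close. Its log2 fold change was 0.16 (SE 0.11) with all libraries and 0.10 (SE 0.05) without WT1, with adjusted p of 0.693 and 0.427 (edgeR, BH). Il2rg stood at 1310, 1285 and 1387 CPM in KO libraries, against 2489, 1391 and 1382 CPM in WT libraries. The KO libraries and WT2 and WT3 lay close together, and WT1 was far above all of them. Its log2 fold change was -0.40 (SE 0.24) with WT1 and -0.06 (SE 0.05) without it, with adjusted p of 0.690 and 0.668 (edgeR, BH). Il2rg lies on chromosome X (GRCm38, 101264378 to 101268255, minus strand), and the overlapping gene Gm20489 had at most 0.467 CPM in any library.

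Among the receptors for the barrier cytokines, Il17rb and Crlf2 had log2 fold changes of opposite sign, neither of them past the test. Il17rb encodes the chain that binds IL-25 (chromosome 14, 29996135 to 30008896, minus strand). Its level was 34.5, 28.8 and 30.9 CPM in KO libraries, against 18.02, 26.3 and 22.8 CPM in WT libraries. Every KO library was higher than every WT library, and WT1 was the lowest of all. On the log2 scale the fold change was 0.49 (SE 0.18) with all libraries and 0.36 (SE 0.13) without WT1, with adjusted p of 0.690 and 0.208 (edgeR, BH). Actr8 overlaps it on the opposite strand, and whether reads were counted by strand is not stated; Actr8 stood at 56.9, 53.1 and 58.3 CPM in KO libraries, against 60.0, 58.0 and 49.4 CPM in WT libraries, which overlap.

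Crlf2 encodes the TSLP-binding chain (chromosome 5, 109554709 to 109558993, minus strand). Its level was 22.1, 23.5 and 20.6 CPM in KO libraries, against 28.8, 26.0 and 28.2 CPM in WT libraries. Every KO library was lower than every WT library, and here WT1 was close to WT3. This was a log2 fold change of -0.32 (SE 0.13) with all libraries and -0.29 (SE 0.13) without WT1, with adjusted p of 0.690 and 0.316 (edgeR, BH). Crlf2 rested on 362, 383 and 365 counts in KO libraries and 412, 389 and 785 counts in WT libraries. Its partner in TSLP binding, Il7r (chromosome 15, 9505788 to 9530176, minus strand), was at 151.3, 159.6 and 160.5 CPM in KO libraries, against 114.0, 129.6 and 154.3 CPM in WT libraries. WT3 reached into the range of the KO libraries. The log2 fold change of Il7r was 0.24 (SE 0.14) with all libraries and 0.15 (SE 0.08) without WT1, with adjusted p of 0.690 and 0.487 (edgeR, BH).

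Il4ra encodes the alpha chain for IL-4 and IL-13, and it was the chain that WT1 changed most in the downward direction. Its level was 606.6, 598.6 and 640.4 CPM in KO libraries, against 309.4, 550.1 and 578.7 CPM in WT libraries. The groups did not overlap, with a narrow gap between KO2 and WT3 and a wide one to WT1. A log2 fold change of 0.36 (SE 0.23) was fitted with all libraries and one of 0.13 (SE 0.06) without WT1, with adjusted p of 0.693 and 0.329 (edgeR, BH). Il9r, the receptor chain for the autocrine ILC2 factor IL-9, was at 111.6, 121.2 and 115.0 CPM in KO libraries, against 83.5, 121.9 and 121.5 CPM in WT libraries. Its direction turned with WT1: the log2 fold change was 0.09 (SE 0.17) with it and -0.07 (SE 0.07) without it, with adjusted p of 0.842 and 0.767 (edgeR, BH). Il21r, which binds IL-21, was barely present, at 5.62, 3.38 and 3.22 CPM in KO libraries and 2.72, 4.87 and 2.62 CPM in WT libraries. Between 39 and 92 reads per library lay behind these values, and its log2 fold change was 0.26 (SE 0.37) with all libraries and 0.15 (SE 0.34) without WT1, smaller than its SE in both fits. Il4ra (chromosome 7, 125552120 to 125579474) and Il21r (125603429 to 125633570) are neighbours on the plus strand, and the antisense gene Gm44876 overlaps Il4ra. Il9r lies on chromosome 11 (32187541 to 32200279, minus strand).

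Csf2rb encodes the beta chain shared by the receptors for IL-3, IL-5 and GM-CSF (chromosome 15, 78325752 to 78353847, plus strand). Its level was 112.8, 113.0 and 102.9 CPM in KO libraries, against 57.96, 95.2 and 98.3 CPM in WT libraries. The groups did not overlap, though KO3 and WT3 were near each other. The fitted log2 fold change was 0.39 (SE 0.21) with all libraries and 0.18 (SE 0.08) without WT1, with adjusted p of 0.690 and 0.321 (edgeR, BH). Mice have a closely related neighbour, Csf2rb2, and the division of reads between them is uncertain. Csf2rb2 stood at 14.9, 19.2 and 13.3 CPM in KO libraries, against 13.4, 20.8 and 21.0 CPM in WT libraries. Its log2 fold change was -0.22 with all libraries and -0.40 without WT1, neither past the test. With the counts of both genes added together, the log2 fold change was 0.29 with all libraries (adjusted p 0.694, edgeR, BH).

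**Figure D2:**
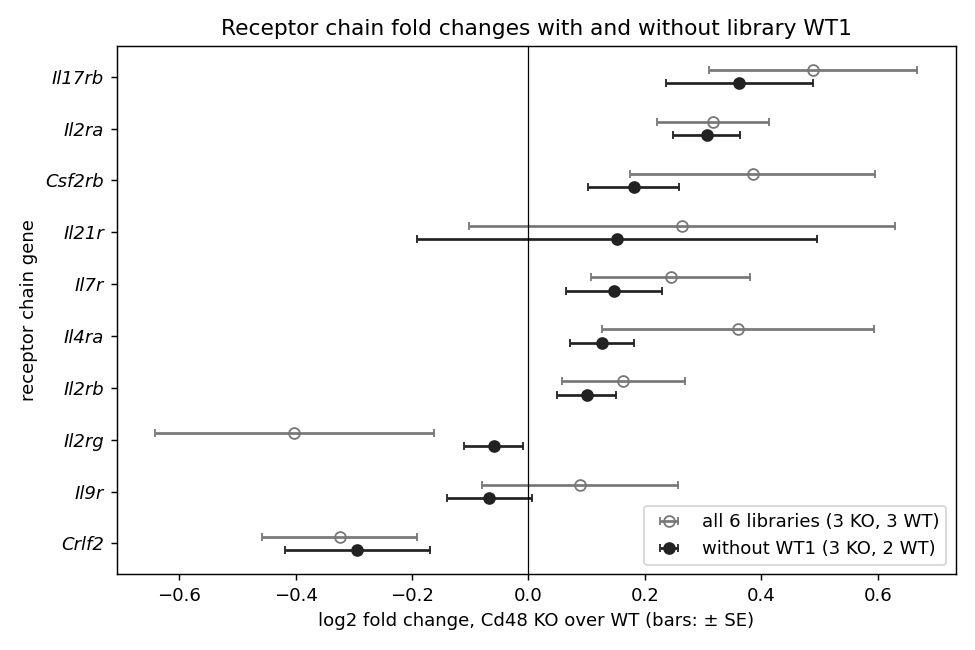
Log2 fold change of each receptor chain (x axis, Cd48 KO over WT, bars ± SE) with all 6 libraries (open) and without WT1 (filled). Il2ra and Crlf2 hardly moved when WT1 was left out (0.32 and 0.31, -0.32 and -0.29), whereas Il2rg came close to 0 and Il9r changed sign.

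The place of WT1 differed from chain to chain, and over all genes transcript length moved with it. Transcripts of 1000 to 2000 bases had a median log2 difference between WT1 and the mean of WT2 and WT3 of 0.295 over all tested genes, and transcripts of 5000 bases and over had one of -0.65. Il2rg, with a longest transcript of 1670 bases, was 0.84 higher in WT1 on the log2 scale, outside the middle 50% of genes of its length class (-0.17 to 0.64). Il17rb (2575 bases) and Il21r (2499 bases) also lay outside theirs (-0.30 to 0.48), at -0.44 and -0.38, where the median of the class was 0.11. Il4ra, with 5256 bases, and Csf2rb, with 4900 bases, had differences of -0.87 and -0.74. Il2ra, with 4412 bases, had a difference of -0.04, and Crlf2, with 1405 bases, one of 0.09. The length trend was put into the offsets of a fit and removed from chain ratios (given below). The part of transcript length in these differences was not tested otherwise. In the fit with the length trend, Il2ra had a log2 fold change of 0.22 with all libraries and 0.28 without WT1. The adjusted p were 0.639 and 0.0293 (edgeR, BH).

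**Figure D3:**
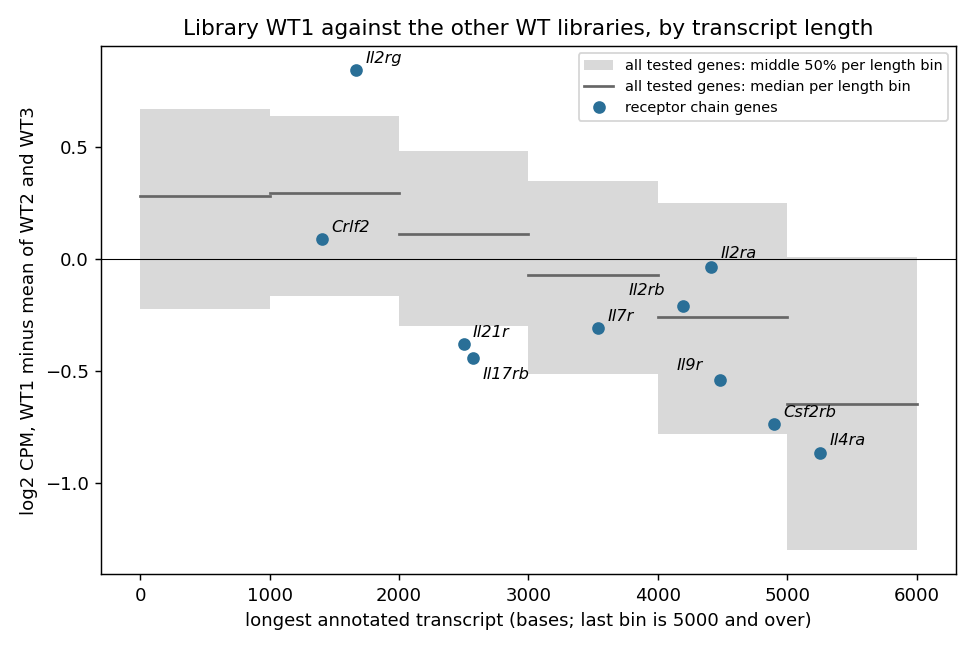
Log2 CPM of WT1 minus the mean of WT2 and WT3 (y axis) against the longest annotated transcript in bases (x axis). Grey marks the median and middle 50% of all tested genes per length class and blue points are the 10 receptor chains, with Il2rg at 0.84 and Il4ra at -0.87.

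Ratios of chains within a library do not depend on library size, and 6 were compared as log2 ratios of counts by a two-sided exact permutation test, whose smallest possible p with 3 against 3 libraries is 0.1. The ratio of Crlf2 to Il7r, the chains that together bind TSLP, was -2.77, -2.76 and -2.96 in KO libraries, against -1.99, -2.32 and -2.45 in WT libraries. It was lower in every KO library, by a mean difference of -0.58 (exact p = 0.1, BH-adjusted p = 0.15), and the difference was -0.45 without WT1. The ratio of Il2ra to Il2rg was 0.63, 0.69 and 0.59 in KO libraries, against -0.62, 0.17 and 0.36 in WT libraries. It was higher in every KO library, by 0.66 with WT1 and 0.37 without it (exact p = 0.1 with all libraries, BH-adjusted p = 0.15). Il7r over Il2rg and Il4ra over Il2rg were also higher in every KO library, by 0.60 and 0.76 with all libraries and by 0.22 and 0.19 without WT1 (exact p = 0.1 each, BH-adjusted p = 0.15). Il4ra over Il2rg was nearly constant among KO libraries, at -1.11, -1.10 and -1.11, against -3.01, -1.34 and -1.26 in WT libraries. Il2ra over Il2rb was 1.92 ± 0.05 in KO and 1.77 ± 0.14 in WT (SD, n = 3 each; exact p = 0.2, BH-adjusted p = 0.24). Il17rb over Il7r was -2.33 ± 0.17 in KO and -2.57 ± 0.24 in WT (SD, n = 3 each; exact p = 0.3, BH-adjusted p = 0.3). The last 2 ratios overlapped between the genotypes. Il2rg and Il7r recur among the other ratios, which are therefore not separate results. How often pairs of other genes are apart in this way was not counted. The difference in Il2ra over Il2rb was 0.15 with all libraries, 0.21 without WT1, where the groups did not overlap, and 0.07 without WT2. That in Il17rb over Il7r was 0.25 with all libraries and 0.20 without WT1, and it was 0.15 without KO1, 0.38 without WT2 and 0.16 without WT3. With the length trend removed, the difference was 0.46 for Il2ra over Il2rg and 0.49 for Il4ra over Il2rg. For Crlf2 over Il7r it was -0.41 (exact permutation p = 0.1 for these 3). For Il7r over Il2rg it was 0.45, and the exact permutation p was 0.2.

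**Figure D4:**
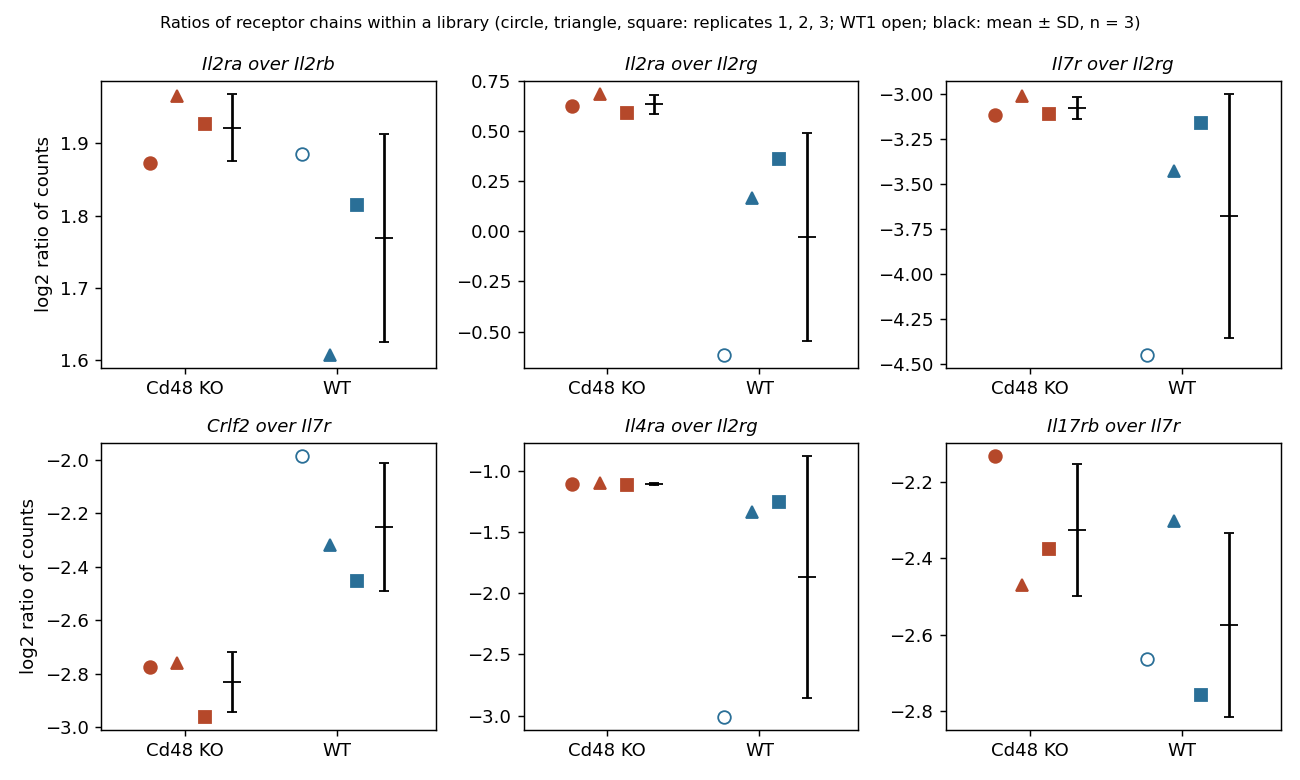
Log2 ratio of counts (y axis) for 6 pairs of receptor chains in 3 Cd48 KO libraries (left) and 3 WT libraries (right), with mean ± SD in black. The 4 pairs whose groups do not overlap are Il2ra over Il2rg, Il7r over Il2rg, Crlf2 over Il7r and Il4ra over Il2rg, and WT1 (open symbol) is the farthest WT library from KO in each. These pairs share chains and are not separate results, and the share over other gene pairs was not counted.

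The genes with the profile most like that of Il2ra over the 6 libraries were AA467197, Rnf2 and Arhgap11a. Their centred log2 CPM differed from that of Il2ra by a root mean square of 0.02, 0.02 and 0.03, where the median of 8675 genes was 0.28. Rnf2, which encodes an E3 ligase of Polycomb repressive complex 1, was at 47.3, 47.5 and 48.5 CPM in KO libraries, against 38.1, 37.4 and 42.1 CPM in WT libraries. Among the receptor chains, Il7r (0.10) and Il2rb (0.12) were nearest to Il2ra and Il2rg (0.45) was farthest, leaving out Il21r, whose level was too low for this measure. The genes most like Il2rg were Nrros, Creb3 and Ntan1 (root mean square differences of 0.02, 0.03 and 0.03), each of which shared its high value in WT1.

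Other parts of the same receptors were read from lists. Of 8 partner chains, 6 were in the table and 5 were tested. Il5ra and Il13ra2 were not in the table, and Il13ra1, at most 0.489 CPM in any library, had too few counts to be tested. Of the 5, 0 passed edgeR's test with or without WT1. Their median log2 fold change was -0.25 with all libraries and -0.27 without WT1. Il17ra, which pairs with the Il17rb product, was the most abundant, at 136.2, 137.8 and 135.2 CPM in KO libraries, against 78.1, 135.6 and 155.7 CPM in WT libraries. Il15ra, which presents IL-15, was at 17.0, 16.9 and 14.2 CPM in KO libraries, against 18.6, 19.8 and 21.1 CPM in WT libraries. It was lower in every KO library (9.11% of all genes), with an adjusted p of 0.690 with all libraries and 0.291 without WT1 (edgeR, BH). Il3ra, the alpha chain for IL-3, averaged 13.9 ± 0.489 CPM in KO and 16.6 ± 4.37 CPM in WT (SD, n = 3 each). WT1 alone stood high for it, at 21.6 CPM, and its log2 fold change was -0.25 with all libraries and -0.02 without WT1.

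Of 13 ligands of these receptors, 8 were in the table and 5 had enough counts to be tested. With all libraries 0 of the 5 were called by edgeR, and without WT1 Il5 rose and 4 did not pass. Il5, the eosinophil factor that signals through the Csf2rb product, stood at 6841, 7642 and 7027 CPM in KO libraries, against 10010, 6179 and 5597 CPM in WT libraries, so WT1 lay above the KO libraries and the other WT libraries below them. Its log2 fold change was -0.02 with WT1 and 0.29 (SE 0.06) without it, with an adjusted p of 0.0332 in the second case (edgeR, BH). For Csf2, Il13 and Il9 the log2 fold change was -0.28, 0.19 and 0.16 with all libraries and -0.22, 0.40 and 0.08 without WT1, none past the test. Il2, Il7 and Il15 were at or below 0.790 CPM in every library.

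Of 16 proximal signalling genes, 0 were called in either fit, 13 had a positive log2 fold change with all libraries and 9 without WT1, and the median was 0.17 and 0.02. Jak1, a kinase that the Il2rb and Il7r products bind, averaged 797.6 ± 25.9 CPM in KO and 704.7 ± 148.3 CPM in WT (SD, n = 3 each). WT1 was the low library, at 538.9 CPM, and the log2 fold change of Jak1 was 0.18 with all libraries and 0.02 without WT1. For Stat3, Stat6 and Jak3 it was 0.09, 0.07 and 0.20 with all libraries and 0.01, -0.02 and 0.09 without WT1. Of 14 genes known as STAT5 targets, 0 were called with all libraries, and 1 rose and 13 did not pass without WT1, and the list's median was -0.04 with all libraries and 0.02 without WT1. The gene that rose, Osm, encodes the cytokine oncostatin M. It was at 124.6, 142.1 and 127.9 CPM in KO libraries, against 84.9, 99.3 and 89.1 CPM in WT libraries, with a log2 fold change of 0.49 (SE 0.09) without WT1; the adjusted p was 0.0117 without WT1 and 0.623 with it (edgeR, BH). Every KO library was above every WT library for Osm and for Socs3 (10.2% of all genes). Mcl1 went the other way, with every KO library below every WT library (9.11% of all genes). It stood at 82.9, 53.9 and 57.5 CPM in KO libraries, against 104.7, 138.5 and 87.1 CPM in WT libraries. The log2 fold change of Mcl1 was -0.765 with all libraries and -0.791 without WT1, with adjusted p of 0.690 and 0.375 (edgeR, BH). Cish, a feedback inhibitor that STAT5 induces, was the most abundant of the list, at 635.1, 672.6 and 690.1 CPM in KO libraries, against 321.0, 660.4 and 593.3 CPM in WT libraries, which overlap. For Ccnd3, Ccnd2 and Socs1 the log2 fold change was -0.06, -0.01 and -0.24 with all libraries and -0.07, -0.10 and -0.13 without WT1.

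Markers of other cell types were examined because these cells could carry the same receptors. Epithelial markers, all 4 in the table, summed to 9.71 to 23.0 CPM in KO libraries and 21.4 to 68.0 CPM in WT libraries, and Epcam fell without WT1 (log2 fold change -0.83, adjusted p 0.0347, edgeR, BH; -0.82 and 0.659 with all libraries). Macrophage and monocyte markers, all 5 in the table, summed to 5.87 to 15.2 CPM in KO libraries and 8.94 to 27.5 CPM in WT libraries. Of 5 mast cell and basophil markers only Cpa3 was in the table, at 0.244 to 0.369 CPM in KO libraries and 0.467 to 1.47 CPM in WT libraries. It was lower in every KO library, as were 9.11% of tested genes. These values lie near the floor, and Cpa3 had too few counts to be tested. Of 3 endothelial markers only Pecam1, which leukocytes also express, was in the table, at 40.1 to 41.9 CPM in KO libraries and 29.1 to 39.8 CPM in WT libraries. It was higher in every KO library (10.2% of all genes), with adjusted p of 0.7 with all libraries and 0.794 without WT1 (edgeR, BH). B cell, dendritic cell, eosinophil and ILC3 markers had 2 of 4, 3 of 3, 1 of 4 and 2 of 4 members in the table, and their sums overlapped between the genotypes, the highest being 51.3 to 57.35 CPM in KO and 57.25 to 67.1 CPM in WT for dendritic cells, of which Xcr1 made up nearly all. None of the 4 NK or ILC1 markers was in the table. The part of these cells in the receptor chain levels was not tested.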

How the data were processed

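RNA of 6 samples of cultured lung ILC2s was sequenced, and groups were taken from the sample titles; per the labels' protocols, cDNA was made with a SMARTer Ultra Low Input kit. The values the authors deposited are estimated counts, 1 gene per column, and carry no normalization: library totals differ, and 60.2% of non-zero values are whole within 0.001. STAR 2.7.8, Partek 10.0, DESeq2 and mm10 are named in the submitters' processing notes without a role; how reads were counted, with which annotation and whether by strand, is not given in the sources used here. In the table the lowest gene total is 10.

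Rounded counts entered the quasi-likelihood test of edgeR 4.0.16 under R 4.3.3 (robust, TMM, genotype as the only term) after filterByExpr (minimum count 10, minimum total 15), adjusting over all tested genes by the Benjamini-Hochberg method. DESeq2 1.42.0 and limma 3.58.1 were alternatives. Each SE was found by dividing the absolute log2 fold change by the root of its F statistic. CPM are TMM-scaled. Log2 CPM for WT1 differences and likeness used a prior count of 2. Positions (1-based) and lengths came from GENCODE vM21 on GRCm38, which matched 17022 of the symbols; 8 of the 10 chains had a RefSeq promoter entry. Tests were checked on simulated counts that held larger fold changes than those of the chains and no library set apart as WT1 is. That check therefore does not cover differences as small as those reported here. No replicate pair agreed within sampling noise (chi-square per gene 5.51 to 154).

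All 10 chains are named. From each list the most abundant members and every called member are named. Of the STAT5 targets, Socs3 and Mcl1 are added for groups that did not overlap, and partner chains not tested are named too. The chains, lists and tests were chosen with earlier results of these data known. Fits without WT1 that also change a second choice, other than DESeq2 or the length trend, were added after the data had been seen. Other settings were size factors, filters, rounding, robustness, the replicate number as a block, a lowess length trend (span 0.3) and each library left out.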

Additional observations from a re-analysis of the deposited data

How the results depend on the processing

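The sign of the log2 fold change held in every planned setting for Il2ra (0.22 to 0.37), Il2rb, Il2rg, Il7r, Il4ra, Il17rb, Crlf2 and Csf2rb. Il9r turned to -0.045 with sample quality weights, -0.00018 with the length trend, -0.067 without WT1 (range with 1 library left out up to 0.18), -0.098 without WT1 and with the length trend, and -0.068 without WT1 in DESeq2; Il21r turned to -0.040 without KO1 (range up to 0.61). The 4 calls over all genes became 102 in DESeq2, 100 with sample quality weights and 0 with the replicate number as a block (776 at an unadjusted p under 0.05); they ranged from 0 to 248 with 1 library left out (0 without KO1 or KO3 by edgeR, with 662 and 335 at an unadjusted p under 0.05), and without WT1 were 231 with the length trend and 413 in DESeq2. Receptor chain calls, 0 with all libraries, were 1 with sample quality weights and ranged from 0 to 1 with 1 library left out; without WT1 they were 1 with the length trend and 1 in DESeq2. In settings added after seeing the data, leaving out a further library besides WT1 gave 517 (KO1), 73 (KO2), 65 (KO3), 89 (WT2) and 141 (WT3) calls over all genes and 0 to 1 receptor chain call, with log2 fold changes of Il2ra of 0.32, 0.30, 0.29, 0.21 and 0.39; Il2ra was called in 8 of 11 settings without WT1. The cause of these shifts was not tested. The differences in the 6 chain ratios kept their sign in every setting, though with 1 library left out that of Il2ra over Il2rb ran from 0.07 to 0.21 and that of Il17rb over Il7r from 0.15 to 0.38. Same-numbered samples did not deviate together (r of -0.05, -0.04 and -0.009 across genes). WT1 weighs heavily on the WT deviations, so these r values cannot show whether the numbers pair the samples. The labels do not say either. With the replicate block, Il2ra had an adjusted p of 0.747 (edgeR, BH). Il21r had the fewest reads, 39 to 92 per library; whether depth sets its spread was not tested. The upper quartile and DESeq2 size factors changed no receptor chain call.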
